A study of Mus musculus with 2 samples.

Results

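The genes described here are 6 members of the Wnt family of secreted ligands, Wnt2b, Wnt4, Wnt5b, Wnt6, Wnt7b and Wnt11, in nuclei of the late embryonic and early postnatal mouse kidney. They were chosen by symbol, with Wnt5a and Wnt9b left out, and each symbol was found once in the gene table of both libraries, so that they are 6 of 32285 genes. Single-nucleus RNA sequencing of whole kidneys gave 1 library of embryos at E18.5 and 1 library of pups at P3, the third day after birth. Each library was a pool of kidneys from several animals of both sexes, from which nuclei were isolated, and droplets were processed with a 10x Genomics 3′ kit. The E18.5 mice carried floxed alleles of Myc and Mycn and no Cre (Mycf/f;Mycnf/f (no Cre) in the labels), on a mixed background. The P3 mice were wild type, of strain C57BL/6J in the labels, whereas the methods of the study name a mixed background for both ages. Age, genotype, background, library and release of the counting software changed together, and their parts in any difference between the libraries cannot be told apart.

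Wnt proteins bind Frizzled receptors with LRP5 and LRP6 or with the kinases ROR1 and ROR2, and act through β-catenin and the TCF and LEF factors or through other branches of the pathway. In the developing kidney, Wnt9b from the ureteric bud and Wnt4 in the induced mesenchyme drive the conversion of nephron progenitors into epithelium, Wnt11 at the ureteric tip takes part in branching, and Wnt7b from the collecting duct is needed for the medulla. Wnt4 is also known from the medullary stroma, Wnt6 from the ureteric bud, and Wnt2b from the mesenchyme around it, and less is known of Wnt5b.

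In the GENCODE M21 annotation of GRCm38, the build that the submitters' processing notes call mm10, the genes lie at chr3:104945272-104961921 (Wnt2b, minus strand), chr4:137277489-137299726 (Wnt4, plus strand), chr6:119432531-119544347 (Wnt5b, minus strand), chr1:74771892-74785322 (Wnt6, plus strand), chr15:85535437-85582473 (Wnt7b, minus strand) and chr7:98835112-98855195 (Wnt11, plus strand). Wnt5b was the longest of them, at 112 kb. Other annotated genes overlap 5 of the 6. Gm43846 lies on the strand of Wnt2b, so that reads from the shared stretch cannot be told apart, and Fbxl14, Gm29539, AU022754 and Gm8398 lie on the other strand of Wnt5b, Wnt6, Wnt7b and Wnt11. Wnt4 had no overlapping gene.

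Start sites of 5 members (all but Wnt7b) were found in the RefSeq promoter table of GRCm38.p6, with 8 windows, and the 250 bases before the start were searched on both strands for 3 short motifs. These were the TCF/LEF core CTTTGAT, read as ATCAAAG on the other strand, the TATA box TATAAA, read as TTTATA there, and the GC box GGGCGG, read as CCGCCC there. Of all 32851 windows of this length, 3.21%, 12.4% and 32.7% held them in this order. A TCF/LEF core was present in 2 windows, and the sequences below show both of them, with the upstream window of Wnt5b for comparison and the motifs in capitals. The Wnt11 window at chr7:98834862-98835111 (plus strand) had the core 51 bases before the start, directly beside a GC box, and a TATA box 29 bases before it. The upstream start of Wnt5b, at chr6:119544348-119544597 (minus strand), had 1 GC box, and its downstream start, at chr6:119449387-119449636 (minus strand), had the core 71 bases before the start.
Wnt11, first start: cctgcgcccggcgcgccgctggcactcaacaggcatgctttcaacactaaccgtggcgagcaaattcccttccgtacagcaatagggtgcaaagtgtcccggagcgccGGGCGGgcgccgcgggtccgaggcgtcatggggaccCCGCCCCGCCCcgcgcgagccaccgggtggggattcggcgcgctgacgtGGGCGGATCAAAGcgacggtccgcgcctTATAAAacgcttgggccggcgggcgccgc
Wnt5b, upstream start: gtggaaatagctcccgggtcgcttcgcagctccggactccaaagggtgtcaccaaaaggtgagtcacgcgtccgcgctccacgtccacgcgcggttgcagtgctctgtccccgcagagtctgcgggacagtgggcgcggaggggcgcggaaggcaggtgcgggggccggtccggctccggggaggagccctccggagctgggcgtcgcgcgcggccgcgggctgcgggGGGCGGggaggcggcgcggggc
Wnt5b, downstream start: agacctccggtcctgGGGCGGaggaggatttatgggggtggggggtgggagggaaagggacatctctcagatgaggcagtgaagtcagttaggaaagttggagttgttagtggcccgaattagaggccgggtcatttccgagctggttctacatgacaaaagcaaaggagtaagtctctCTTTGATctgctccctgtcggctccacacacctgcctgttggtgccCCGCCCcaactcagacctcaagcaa
GC content was 70.8% in the Wnt11 window shown and 75.2% and 55.6% in those of Wnt5b. It was 85.2% in the window of Wnt4, where 8 GC boxes were found, against a median of 52.4% over all windows. A second Wnt11 window, at 56.8%, and a Wnt5b window between the ones shown, at 53.2%, held none of the 3 motifs. A match to these letters is a description of the sequence. Which start was used in these nuclei was not tested.

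After quality limits, 21270 nuclei with 77321253 UMIs (unique molecular identifiers, each standing for 1 captured transcript) remained at E18.5, with a median of 3132 UMIs, and 11765 nuclei with 70055219 UMIs and a median of 4534 at P3. The 2 libraries shared 69 barcodes. Doublets were called for 16.6% and 17.4% of nuclei. Clusters were built without the 6 members and the other pathway genes, and at E18.5 69.6% of nuclei, at P3 68.6%, fell into clusters that markers outside these lists placed in 1 of 14 classes, each named here after the cell type it resembled. Doublet-rich clusters, which stayed unnamed, held between 24.8% and 37.8% of the UMIs of each member at either age. They made up 17.0% of nuclei at E18.5 and 15.6% at P3, at medians of 5854 and 10552 UMIs, above those of all nuclei. Their share of the UMIs of all genes is not given here. A level is given as CPM, the UMIs of the gene per 1000000 UMIs of all genes in the same nuclei, with a 95% interval that covers counting error only. CPM compares 1 gene between nuclei, not 1 gene with another. Since there was 1 library per age, no test was possible, and a gene was called higher or lower where its level differed at least 2-fold and it had at least 20 UMIs at 1 age. In the nephron progenitor-like class, markers of progenitors differed between the ages in both directions. From E18.5 to P3, Cited1 was measured at 32.8 and 1.32 CPM, Crym at 51.8 and 2.65, and Six2 at 28.2 and 14.2. Eya1 was at 1738 and 2203 CPM, and Tmem100 was also higher at P3.

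In whole libraries no member was called between the ages. Wnt4 was at 71.4 CPM at E18.5 (5522 UMIs) and 82.4 at P3 (5776 UMIs), a P3 to E18.5 ratio of 1.15 (95% interval 1.11 to 1.20). Wnt5b was at 75.0 and 77.0 CPM, with a ratio of 1.03 (0.989 to 1.07). Wnt11 had the highest ratio of the 6, with 13.8 and 18.3 CPM and 1.32 (1.22 to 1.43). Wnt7b was at 8.77 and 9.01 CPM, Wnt2b at 5.88 and 4.87, and Wnt6 at 1.36 and 1.31, from 105 and 92 UMIs. Thus 0 of 6 members were called, where 6.01% of 20381 genes were called higher at P3 and 11.3% lower. The levels of whole libraries hid opposite differences between classes, which the following paragraphs give.

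**Figure D1:**
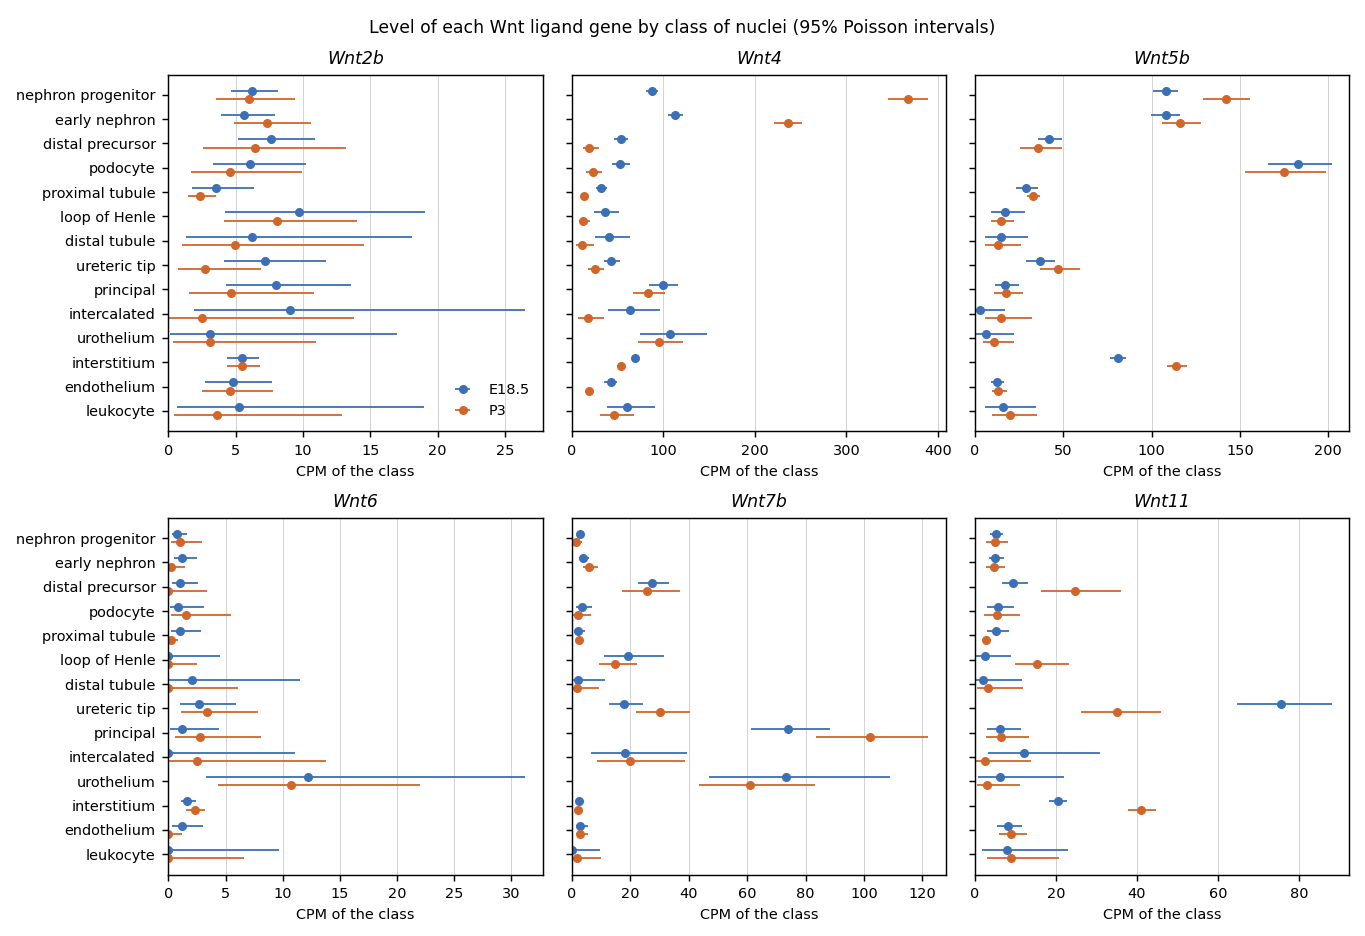
Level of each of the 6 ligands in 14 classes of nuclei at E18.5 (blue) and P3 (orange). Points are CPM of the class and bars are 95% Poisson intervals, which cover counting error only. Wnt4 reached 367 CPM in the nephron progenitor-like class at P3, and Wnt7b was highest in the principal cell-like class at both ages. Wnt6 was highest in the urothelium-like class, from 4 UMIs at E18.5 and 7 at P3, and no class stood apart for Wnt2b.

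Wnt4, the ligand through which condensed mesenchyme becomes epithelium, was the member with the largest difference between the ages in nephrogenic nuclei. In nephron progenitor-like nuclei it was at 87.7 CPM at E18.5 (721 UMIs, 95% interval 81.4 to 94.3) and at 367 CPM at P3 (1110 UMIs, 346 to 389.7). The ratio was 4.19 (3.81 to 4.61), in a class where 4.25% of genes were called higher at P3 and 12.9% lower. With quality limits on the linear scale it was 7.40, and with called doublets removed before clustering 3.58. Early nephron-like nuclei held 113 CPM at E18.5 (105 to 122) and 236 at P3 (221 to 252), a ratio of 2.08 (1.88 to 2.30), and 3.67% of genes were called higher there. This call depended on the processing: the ratio was 1.25 with called doublets removed before clustering, 1.90 on a graph of 20 neighbours and 1.99 as mean CPM per nucleus, all below the 2-fold limit. The class with the highest Wnt4 level thus was the early nephron-like class at E18.5, ahead of the urothelium-like class (107 CPM) by less than the counting error, and the nephron progenitor-like class at P3, where it exceeded the early nephron-like class. That P3 class had less Cited1, Crym and Six2, and more of the early nephron marker Pax8, than the E18.5 class of the same name. Its make-up could thus differ between the ages. Nephron progenitor-like nuclei with at least 1 Wnt4 UMI made up 20.7% of the class at E18.5 and 62.5% at P3. With all nuclei thinned to 1000 UMIs, 8.03% (6.97% to 9.20%) of the class at E18.5 still had one, and 28.3% (24.7% to 32.2%) of it at P3 did. In endothelium-like nuclei, which should lack Wnt4, the thinned shares were 3.86% and 2.38%, at median depths of 2826 and 3447 UMIs against 3167 and 4634 in the nephron progenitor-like class.

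The opposite difference was measured in other classes. The gene was called lower at P3 in 7 classes, the distal precursor-like, distal tubule-like, loop of Henle-like, intercalated-like, podocyte-like, proximal tubule-like and endothelium-like nuclei. Their E18.5 levels lay between 32.1 and 63.4 CPM and their P3 levels between 11.6 and 23.6. In endothelium-like nuclei it fell from 42.3 CPM to 19.1, a ratio of 0.452 (0.327 to 0.618), where 13.1% of genes were called lower. In proximal tubule-like nuclei it fell from 32.1 CPM to 13.4, a ratio of 0.419 (0.318 to 0.551), where 11.1% were. In distal precursor-like nuclei it fell from 53.3 CPM to 19.3, a ratio of 0.362 (0.220 to 0.568), where 15.7% of genes were called lower. That class had 1162 nuclei at E18.5 and 189 at P3, and none of its sub-clusters of that name could be paired. Its make-up could thus differ between the ages. In the other classes of the 7, the background of genes called lower was 9.97% in loop of Henle-like, 12.0% in intercalated-like, 12.7% in podocyte-like and 14.5% in distal tubule-like nuclei. Cited1, the only progenitor marker given here for endothelium-like nuclei, which should lack it, was at 22.6 CPM in them at E18.5 and at 0.659 at P3. In nephron progenitor-like nuclei Cited1 was also lower at P3, whereas Eya1, Tmem100 and Wnt4 (87.7 and 367 CPM) were higher there. Levels of Eya1 and Tmem100 in endothelium-like nuclei are not given here, so that Cited1 does not stand for the progenitor markers as a set. Both libraries had a cluster of shallow nuclei that stayed unnamed, with medians of 1254 UMIs at E18.5 and 964 at P3, and these held 123 and 107 CPM of Wnt4. Free RNA in the droplets was not measured, and its part in the low levels was not tested.

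Clusters within the nephrogenic nuclei gave a finer view of Wnt4. Sub-clusters of the libraries were paired by their leading genes, and the pair led by Lsamp, Dcc and Bmper, with Eya1 at 1606 and 2260.2 CPM, had 117 CPM in 1011 nuclei at E18.5 and 335 CPM in 473 nuclei at P3, a ratio of 2.87 (2.55 to 3.23), where 4.30% of genes were called higher. The pair led by Sdk2, Ndnf and Rerg had 179 CPM in 533 nuclei and 399 CPM in 271 nuclei, a ratio of 2.23 (1.95 to 2.55), where 3.65% were. Lhx1, which marks the renal vesicle, was at similar levels in that pair, 327 and 341 CPM, but Eya1 was at 337 and 1314 CPM, so that its nuclei were not alike at both ages. In the pair led by Gm20528, Stxbp5l and Pcsk2, with Lhx1 at 333 and 276 CPM, Wnt4 was at 137 and 149.6 CPM, a ratio of 1.09 (0.884 to 1.34). At P3, a sub-cluster without a partner that was named early nephron-like, with Alk and Igsf21 among its leading genes, had 349.9 CPM in 167 nuclei. The higher level at P3 therefore was measured in 2 of 4 nephrogenic pairs. The largest E18.5 sub-cluster, of 1343 nuclei with 4 of 7 progenitor markers raised, had no partner at P3, so that the pairs do not cover it. In the pair led by Lsamp, Dcc and Bmper, 1 of 7 of these markers was raised at E18.5 and 2 of 7 at P3. Within the nephron progenitor-like class at P3, Tmem100 was at 110.2 CPM and Pax8 at 604, against 40.0 and 206 at E18.5, and the part of a shift in the make-up of the class was not tested.

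Among the stromal sub-clusters that could be paired, 1 led for Wnt4. The pair of sub-clusters led by Nrxn3 and Corin had 232 CPM in 457 nuclei at E18.5 (448 UMIs) and 166 CPM in 358 nuclei at P3 (372 UMIs), a ratio of 0.716 (0.622 to 0.824). It was named medullary stroma-like at E18.5, and stayed unnamed at P3. Markers of both medullary stroma and smooth muscle were raised in it at each age, 3 of 6 and 3 of 8 at E18.5 and 3 of 6 and 5 of 8 at P3, with Acta2 at 176 and 285 CPM. In this pair 53.8% and 54.2% of nuclei had a Wnt4 UMI. A small E18.5 sub-cluster of 50 nuclei led by Ranbp3l, Gm5127 and Trpc6 had 281 CPM (210.1 to 367), and an unnamed P3 cluster of 115 nuclei with Syndig1 among its leading genes had 241 CPM (208 to 278). The cortical stroma-like pair led by Megf11, Zdhhc14 and Kcnk2 had 42.0 and 18.1 CPM and was called lower at P3, where 15.6% of genes were. The interstitium-like class, which held these sub-clusters but not the unnamed cluster of 115 nuclei, was at 69.5 and 53.6 CPM.

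Among the ureteric classes, Wnt4 was higher in principal cell-like and urothelium-like nuclei than in tip-like nuclei. Principal cell-like nuclei had 99.2 and 83.1 CPM, urothelium-like nuclei 107 and 94.8, and ureteric tip-like nuclei 43.3 and 25.6 CPM at E18.5 and P3. The intervals of the tip-like and endothelium-like levels overlapped at both ages. Among ureteric sub-clusters, the pair led by Gsdmc3, Ptprr and Gsdmc2 had the highest paired level, 158 CPM in 55 nuclei and 104 in 47 nuclei, and its ratio of 0.654 had an interval that held 1 (0.401 to 1.07). The principal cell-like pair was at 90.8 CPM in 431 nuclei (130 UMIs) and at 22.4 CPM in 68 nuclei (8 UMIs), a ratio of 0.247 (0.104 to 0.501), in a pair where 1780 of 9608 genes were at least 2-fold lower at P3. The P3 member of this pair, which was paired by name with 1 shared leading gene, held at most 8 of the 90 Wnt4 UMIs of principal cell-like nuclei at P3. Although 7 of 8 principal markers were raised in it, its 22.4 CPM lay near the 25.6 CPM of the tip-like class. The P3 sub-clusters led by Gsdmc3 and by Crisp1, both unnamed, held 39 and 55 Wnt4 UMIs in 47 and 111 nuclei. The higher level of the principal cell-like class at P3 thus was not seen in the sub-cluster of that name.

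**Figure D2:**
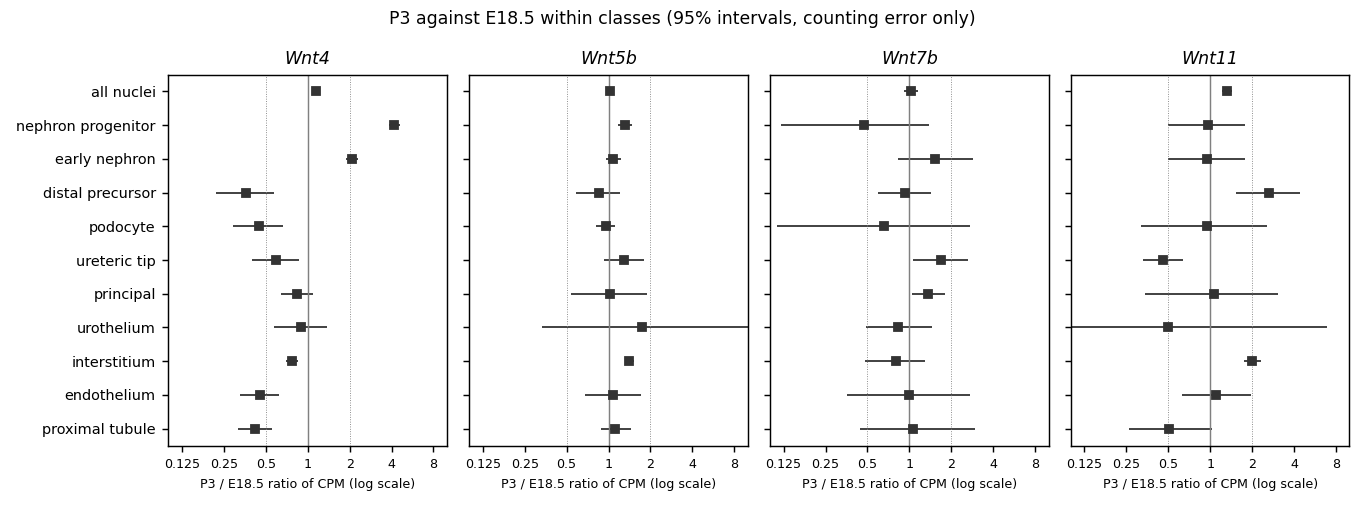
P3 to E18.5 ratio of the level of Wnt4, Wnt5b, Wnt7b and Wnt11 in all nuclei and in 10 classes, on a log axis. Squares are ratios of CPM, bars are 95% intervals of counting error and dotted lines mark 2-fold. Wnt4 was at 4.19 in the nephron progenitor-like class and at 0.362 in the distal precursor-like class. In the endothelium-like class, which should lack it, Wnt4 was at 0.452. Wnt11 was at 0.462 in the ureteric tip-like class and at 2.01 in the interstitium-like class.

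Wnt11, the ligand of the branching ureteric tip, was lower in the tip and higher in the interstitium at P3. In ureteric tip-like nuclei it was at 75.7 CPM at E18.5 (168 UMIs, 64.7 to 88.1) and 35.0 CPM at P3 (52 UMIs, 26.1 to 45.9), a ratio of 0.462 (0.332 to 0.634), where 13.1% of genes were called lower and 3.11% higher. In interstitium-like nuclei it was at 20.5 CPM (338 UMIs, 18.3 to 22.8) and 41.1 CPM (593 UMIs, 37.9 to 44.6), a ratio of 2.01 (1.76 to 2.30), where 3.50% of genes were called higher. This ratio lay at the 2-fold limit, and 4 alternatives put it below, at 1.91 to 1.98. The leading class of Wnt11 thus changed from the tip, 6.30 times the level of all other nuclei at E18.5, to the interstitium, 3.33 times at P3. At P3 the interstitium-like and tip-like levels differed by less than the counting error. Per nucleus thinned to 1000 UMIs, the share of tip-like nuclei with a Wnt11 UMI was 4.24% (2.84% to 6.07%) in the E18.5 library and 4.63% (2.49% to 7.78%) in the P3 library. These shares do not show the difference that the summed UMIs show, but their intervals are too wide to decide on it. Both shares lie above the 0.919% and 1.0% of endothelium-like nuclei. The share in interstitium-like nuclei was 1.77% (1.42% to 2.17%) and 3.83% (3.18% to 4.57%).

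Within the ureteric nuclei, the sub-cluster that carried all 6 tip markers at each age held most of the signal. Its Wnt11 level fell from 119 CPM in 395 nuclei (163 UMIs) to 44.6 CPM in 208 nuclei (49 UMIs), a ratio of 0.374 (0.266 to 0.518), where 12.6% of genes were called lower. The sub-clusters were paired by name and shared 1 leading gene. Nuclei with a Wnt11 UMI were 24.8% of it at E18.5 and 15.9% at P3. Other tip genes moved in both directions in the same nuclei. Ret, the receptor for GDNF, was at 143 and 166 CPM, and Slco4c1 at 571 and 458 CPM. Etv4, Etv5 and Adamts18, of which the first pair are transcription factors downstream of RET, were at 320.2 and 115, 316 and 157, and 213 and 61.9 CPM. Wnt9b, the ligand of the ureteric bud that starts nephron induction, was at 54.1 CPM at E18.5 and 135 at P3 in this sub-cluster, a ratio of 2.49 (1.87 to 3.34).

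Among the paired stromal sub-clusters, the one highest for Wnt4 was also the highest for Wnt11. The pair led by Nrxn3 and Corin had 58.5 CPM at E18.5 (113 UMIs) and 116 CPM at P3 (261 UMIs), a ratio of 1.99 (1.59 to 2.51), just inside the 2-fold limit, whereas its Wnt4 ratio was 0.716. Nuclei with a Wnt11 UMI made up 20.4% and 43.3% of it. Markers of medullary stroma in this pair included Penk, at 166 and 304 CPM, and Alx1, at 311 and 577 CPM. A P3 sub-cluster led by Csmd3, Unc13c and Smoc2 had 83.9 CPM in 142 nuclei, and the larger sub-clusters with raised medullary markers had 30.7 CPM in 1216 nuclei at E18.5 and 45.1 CPM in 595 nuclei at P3. In the cortical stroma-like pair Wnt11 was at 9.81 and 14.4 CPM. Wnt11 was also higher in distal precursor-like nuclei at P3, with 9.43 CPM (37 UMIs) and 24.8 CPM (27 UMIs), a ratio of 2.63 (1.54 to 4.44), where 2.52% of genes were called higher. No sub-cluster of that name could be paired between the ages, so that the make-up of this class could differ. In loop of Henle-like nuclei Wnt11 rose from 2.43 CPM (2 UMIs) to 15.4 CPM (23 UMIs), a ratio of 6.34 with an interval of 1.57 to 55.5, where 4.92% of genes were called higher. In nephron progenitor-like nuclei it was at 5.11 and 4.97 CPM, below the 8.04 and 8.89 CPM of endothelium-like nuclei.

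**Figure D3:**
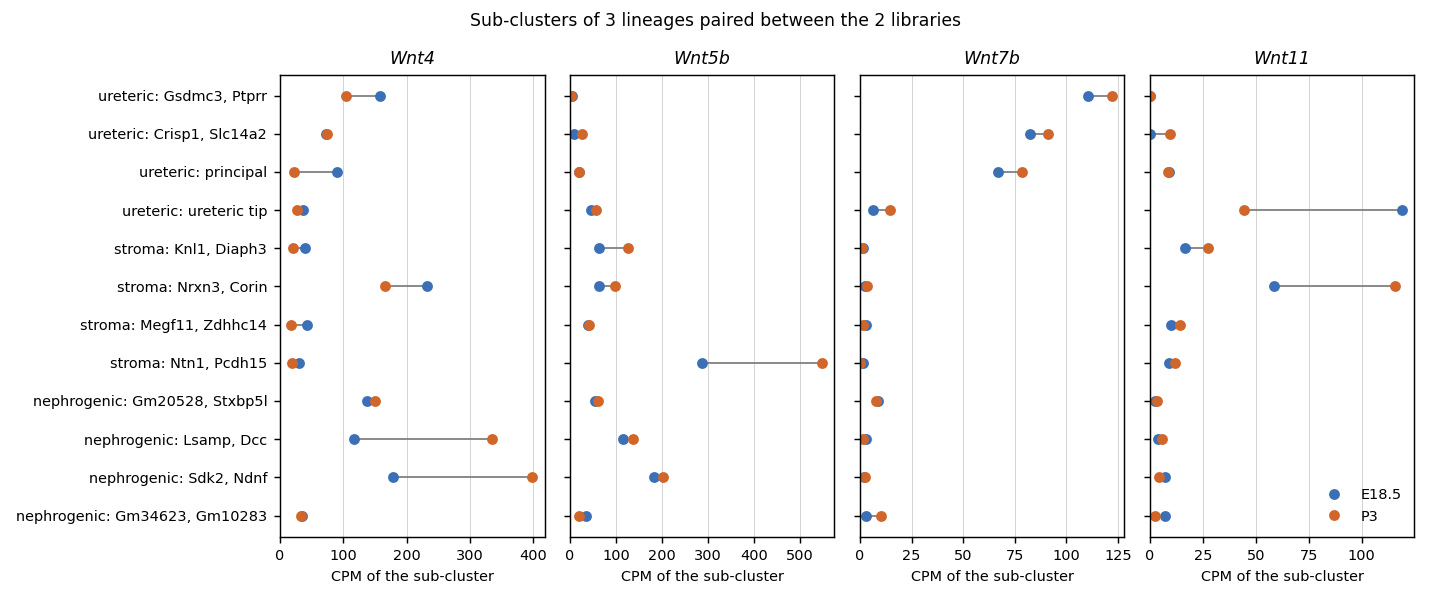
Level of Wnt4, Wnt5b, Wnt7b and Wnt11 in sub-clusters of ureteric, stromal and nephrogenic nuclei that could be paired between E18.5 (blue) and P3 (orange), with CPM of the sub-cluster on the horizontal axis and the pair, given by leading genes or name, on the vertical. The population led by Nrxn3 and Corin was at 232 and 166 CPM for Wnt4 and at 58.5 and 116 CPM for Wnt11, and the tip-like sub-cluster was at 119 and 44.6 CPM for Wnt11.

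Wnt7b, the collecting duct ligand of medullary growth, was highest in principal cell-like nuclei at both ages. Principal cell-like nuclei had 74.1 CPM at E18.5 (121 UMIs, 61.5 to 88.5) and 102 CPM at P3 (110 UMIs, 83.5 to 122), or 10.1 (8.20 to 12.3) and 13.4 (10.8 to 16.5) times the level of all other nuclei. Leiden clustering gave 42.8 and 58.2 CPM, or 6.27 and 8.26 times. The ratio between the ages was 1.37 (1.05 to 1.79). Urothelium-like nuclei had 73.2 and 61.1 CPM, which differed from the principal cell-like level by less than the counting error at E18.5. In ureteric tip-like nuclei Wnt7b was lower, at 18.0 CPM (40 UMIs) and 30.3 CPM (45 UMIs). The sub-cluster named principal cell-like had 431 nuclei at E18.5 and 68 at P3, beside 485 and 153 in the class of that name. The tip-like sub-cluster had 395 and 208 nuclei, beside 662 and 281 in its class. The make-up of both classes could thus differ between the ages, and its part in these levels was not tested. Interstitium-like nuclei had 2.60 and 2.08 CPM and endothelium-like nuclei 2.98 and 2.96, which gives the background. After thinning, 7.87% and 11.1% of principal cell-like nuclei had a Wnt7b UMI, against 0.460% and 0.502% of endothelium-like nuclei, at median depths of 3312 and 6283 against 2826 and 3447 UMIs.

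Ureteric sub-clusters gave Wnt7b levels within these classes. The pair led by Gsdmc3, Ptprr and Gsdmc2 had 110.4 CPM in 55 nuclei (70.0 to 166) and 122 CPM in 47 nuclei (89.4 to 163). The pair led by Crisp1, Slc14a2 and Mgat4c, which includes a urea transporter gene of the inner medullary collecting duct, had 82.4 CPM in 54 nuclei and 91.1 CPM in 111 nuclei. The principal cell-like pair had 67.1 and 78.5 CPM, and the tip-like pair 6.58 and 14.6 CPM. The pair led by Upk1b, Upk1a and Fmo5, genes of the urothelium, had 63.9 and 56.7 CPM. The intervals of the first 3 pairs overlapped at both ages, and those of the tip-like pair lay below them. Outside the ureteric classes, Wnt7b was at 27.5 and 25.7 CPM in distal precursor-like and 19.4 and 14.7 CPM in loop of Henle-like nuclei, but at 2.06 and 1.65 CPM, from 1 UMI at each age, in distal tubule-like nuclei. In nephron progenitor-like nuclei it was near the background, at 2.80 CPM (23 UMIs) and 1.32 CPM (4 UMIs), and passed the 2-fold limit at a ratio of 0.473 although the interval held 1 (0.119 to 1.39). At E18.5 a sub-cluster of 77 nuclei among the nephrogenic ones reached 164 CPM (117 to 225). It was led by Corin, Gm20647 and Rtl4, with 4 of 6 distal precursor markers raised. An unnamed P3 cluster of 100 nuclei led by Sgcz, Ranbp3l and Prox1 had 71.7 CPM (49.9 to 99.7).

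The highest class level of Wnt5b was in podocyte-like nuclei at both ages. These had 183 CPM at E18.5 (422 UMIs, 166 to 202) and 175 CPM at P3 (230 UMIs, 153 to 199). Nephron progenitor-like nuclei followed with 108 and 142 CPM and early nephron-like nuclei with 108 and 116 CPM. Endothelium-like nuclei had 12.2 and 13.2 CPM. In interstitium-like nuclei Wnt5b was at 80.9 CPM at E18.5 (76.6 to 85.3) and 114 CPM at P3 (109 to 120.0), a ratio of 1.41 (1.32 to 1.52) and below the 2-fold limit.

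Podocyte-like clusters were not uniform for Wnt5b. When called doublets were removed before clustering, podocyte-like nuclei at E18.5 formed separate clusters, which did not hold the same nuclei as the class above. A cluster of 179 nuclei led by Ndnf, Nebl and Ptpro had 454 CPM of Wnt5b (401 to 513). A cluster of 549 nuclei led by Magi2, Gm29266 and Ptpro had 92.1 CPM (78.7 to 107), and a cluster of 45 nuclei had 206 CPM (157 to 267). At P3, 72 nuclei with Ndnf among their leading genes had 402 CPM (340.4 to 471) and 139 nuclei led by Magi2 had 57.8 CPM (40.7 to 79.6). At both ages the intervals of the Ndnf-led and Magi2-led clusters did not overlap. The podocyte genes Nphs1 and Podxl were lower where Wnt5b was higher. In the Ndnf-led and Magi2-led clusters, Nphs1 was at 272 and 1048 CPM at E18.5 and at 756 and 2202 CPM at P3. Podxl was at 503 and 1446 CPM, then at 973 and 2757 CPM. Magi2, a podocyte marker used for naming, was at 2427 and 51506 CPM, then at 11186 and 66513 CPM. Wt1 went the other way, with 2797 and 1834 CPM at E18.5 and 3309 and 2487 CPM at P3. With called doublets kept, the 2 podocyte-like clusters of P3 had 264 CPM (123 nuclei) and 59.3 CPM (129 nuclei). Where nuclei were clustered on a graph of 20 neighbours, the class held only Magi2-led nuclei, and Wnt5b was at 84.6 CPM at E18.5 and at 65.1 CPM at P3, the latter 0.843 times the level of all other nuclei, so that the lead of the class was lost.

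In the stroma, Wnt5b was led by populations with markers of the nephrogenic zone. The nephrogenic zone stroma-like pair led by Ntn1, Pcdh15 and Luzp2 had 287 CPM in 216 nuclei at E18.5 (187 UMIs, 247 to 331) and 547 CPM in 66 nuclei at P3 (138 UMIs, 459.5 to 646), a ratio of 1.91 (1.52 to 2.39). Nuclei with a UMI were 47.2% and 65.2% of it. A second E18.5 sub-cluster of this kind, of 893 nuclei, had 148 CPM, and an unnamed P3 sub-cluster of 492 nuclei in which 3 of 4 markers of this stroma were raised, led by Aox3, Dgki and Rspo3, had 233 CPM. A small pair led by Ebf2, Sntg1 and Col6a6 was called higher at P3, with 99.9 CPM in 136 nuclei and 271 CPM in 30 nuclei, a ratio of 2.71 (1.71 to 4.26), where 3.54% of genes were called higher. The cortical stroma-like pair had 39.8 and 42.3 CPM, and the pair led by Nrxn3 and Corin, highest for Wnt4 among the stromal pairs, had 64.2 and 98.2 CPM. Among nephrogenic nuclei, the pair led by Sdk2, Ndnf and Rerg had 183 and 202 CPM of Wnt5b, a ratio of 1.10 (0.945 to 1.28), where the Wnt4 ratio was 2.23.

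Wnt6 had the fewest UMIs of the 6, with 105 at E18.5 and 92 at P3. Its highest class was the urothelium-like one at both ages, with 12.2 CPM from 4 UMIs (3.32 to 31.2) and 10.7 CPM from 7 UMIs (4.30 to 22.0), or 9.30 (2.49 to 24.6) and 8.74 (3.41 to 18.8) times the level of the other nuclei. The UMIs lay in the sub-clusters in which Trp63, a gene of basal urothelial cells, was among the leading genes, with 4 UMIs in 46 nuclei and 6 UMIs in 45 nuclei. Ureteric tip-like nuclei had 2.70 and 3.36 CPM, and interstitium-like nuclei 1.63 and 2.29. In the stromal pair led by Nrxn3 and Corin, Wnt6 was at 3.62 CPM (7 UMIs) and 5.35 CPM (12 UMIs). In endothelium-like nuclei at P3, 0 of 799 nuclei had a UMI, which allows a level of up to 0.988 CPM at 3 UMIs.

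No class stood apart for Wnt2b. Its highest class level was that of loop of Henle-like nuclei, 9.71 CPM from 8 UMIs at E18.5 and 8.03 CPM from 12 UMIs at P3, and the ratio to all other nuclei had an interval that held 1 at both ages (0.713 to 3.30 and 0.855 to 2.96). In ureteric tip-like and principal cell-like nuclei together it was at 7.53 CPM (29 UMIs) and 3.50 CPM (9 UMIs), which passed the 2-fold limit at a ratio of 0.465 although the interval held 1 (0.194 to 1.01). The sub-cluster with the highest Wnt2b level from at least 4 UMIs was stromal at each age: the E18.5 member of the pair led by Ebf2, Sntg1 and Col6a6, with 17.0 CPM from 8 UMIs, and the P3 member of the nephrogenic zone stroma-like pair, with 27.7 CPM from 7 UMIs (11.2 to 57.2). Over all classes, 2 of 6 members at E18.5, Wnt6 and Wnt11, and 1 of 6 at P3, Wnt6, had a leading class at least 2-fold above the next, where 20.7% and 21.8% of all genes did. For Wnt6 this rested on 4 and 7 UMIs, and the interval of the ratio to the next class held 1 at both ages (0.937 to 19.0 and 0.869 to 12.7).

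Whether members were detected in the same nuclei was described after thinning each nucleus to 1000 UMIs. Among 1143 tip-like and principal cell-like nuclei at E18.5, 40 had a Wnt7b UMI and 40 a Wnt11 UMI, and 0 had both, where 1.40 were expected for independent genes and the interval of the ratio reached 2.64. At this depth the absence of nuclei with both could not be distinguished from independence. Wnt4 and Wnt7b were found together in 5 such nuclei at E18.5 against 2.80 expected, a ratio of 1.79 (0.580 to 4.17), and in 2 at P3 against 1.11. Among 3107 interstitium-like nuclei at P3, Wnt4 and Wnt11 were found together in 19 against 5.77 expected, a ratio of 3.29 (1.98 to 5.14), which was 1.72 (1.13 to 2.53) after thinning to 2000 UMIs. At E18.5 the ratio was 1.43 (0.619 to 2.83) among 5094 nuclei. The expected numbers treat the class as uniform, whereas the pair led by Nrxn3 and Corin was the highest paired stromal sub-cluster for both genes. Independence of Wnt4 and Wnt11 within sub-clusters was not tested. Wnt4 and Wnt5b were found together in 12 interstitium-like nuclei at P3 against 12.7 expected.

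Genes whose levels varied most like those of a member were sought across 25 clusters at E18.5 and 30 at P3, by Pearson correlation of log2(CPM + 10) over 13944 genes. The clusters of a library share its depth and free RNA, and r is a description. For Wnt7b these were Cblc (r = 0.86 at E18.5 and 0.89 at P3), the epithelial transcription factor gene Ehf (0.92 and 0.86) and Fosl2 (0.84 and 0.86). For Wnt5b they were Cacna1g (0.84 and 0.86), Eya4 (0.80 and 0.83) and Hoxc6 (0.80 and 0.80). Wnt4 and Wnt11 had looser companions, Bmerb1 (0.65 and 0.64), Kif26b (0.60 and 0.67) and Bean1 (0.59 and 0.65) for the first and Dach2 (0.68 and 0.72), Zfp536 (0.65 and 0.68) and Cyp7b1 (0.71 and 0.61) for the second, where Zfp536 is a marker of medullary stroma used for naming. Wnt2b, with few UMIs, had Gfpt2 (0.69 and 0.56), 1810062O18Rik (0.57 and 0.56) and Tbce (0.63 and 0.54). Of the study's own Wnt ligands, Wnt9b varied with Wnt7b (0.52 and 0.70) and Wnt5a with Wnt11 (0.58 and 0.49), while Wnt5b and Wnt7b had negative values (-0.44 and -0.38).

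The other genes of the pathway were taken from lists of 77 genes, 66 of which could be called in all nuclei. There, 4 were higher at P3 and 7 lower, against the 6.01% and 11.3% of all genes. Among the lower ones were 4 of 13 antagonists, including Dkk1 (15.9 and 3.14 CPM, a ratio of 0.198) and Sost (1.66 and 0.428 CPM, 0.259), both inhibitors of the LRP5 and LRP6 co-receptors. The R-spondin gene Rspo1, whose product potentiates Wnt signals, was at 29.1 and 9.71 CPM (0.333), the receptor gene Fzd2 at 47.2 and 18.2 (0.386) and the ligand gene Wnt16 at 2.61 and 0.785 (0.301). Among the higher ones were Sp5 (1.15 and 3.25 CPM, 2.83) and Nkd2 (11.3 and 23.3 CPM, 2.07), of the 8 transcription factors and targets, Notum, which encodes an enzyme that inactivates Wnt proteins (2.64 and 5.58 CPM, 2.12), and Wnt10a (0.155 and 0.343 CPM, 2.21). In nephron progenitor-like nuclei, 9 of 58 tested genes were higher at P3 and 6 lower, against 4.25% and 12.9% of all genes. The higher ones were Notum (5.11 and 29.5 CPM), Dkk2 (25.8 and 119), Wnt8b (3.89 and 18.2), Nkd1 (31.1 and 105), Kremen1, Lef1 (36.2 and 81.1), Ror1, Frzb and Rnf43. The lower ones were Dkk1 (11.7 and 1.66 CPM), Rspo3 (77.7 and 22.2), Sostdc1 (34.1 and 9.93), Sost, Fzd8 and Fzd2 (56.3 and 23.8), so that antagonist genes were called in both directions, 3 higher and 3 lower. These genes were named after their values were seen. In interstitium-like nuclei 3 of 60 tested were higher and 8 lower, where 3.50% and 13.7% of all genes were. In tip-like and principal cell-like nuclei 0 of 51 were higher and 5 lower, where 3.80% and 14.0% of genes were called.

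The pathway genes were also compared between classes within each library. In tip-like and principal cell-like nuclei 3 of 65 pathway genes were at least 2-fold above all other nuclei at E18.5 and 8 of 65 at P3, where 8.06% and 9.07% of all genes were. Wnt9b led with 91.9 and 139 CPM, or 15.6 and 17.9 times the other nuclei. Rnf43, which encodes a ligase that removes Frizzled receptors, followed with 205 and 356 CPM, or 8.88 and 8.71 times. Of the 6 members, 2 were above 2-fold there at each age, Wnt7b and Wnt11 at E18.5 and Wnt7b and Wnt6 at P3. For Wnt6 this rested on 8 UMIs. In interstitium-like nuclei 12 of 65 pathway genes at E18.5 and 14 of 65 at P3 were at least 2-fold above the other nuclei, where 6.61% and 8.43% of all genes were. They included the Wnt5a receptor gene Ror2 (349 and 511 CPM, 3.87 and 3.71 times), the antagonist genes Dkk2 (164 and 139 CPM, 3.88 and 3.06 times) and Dkk3 (40.1 and 47.8 CPM, 2.83 and 3.44 times), and the R-spondin gene Rspo3 (87.5 and 74.2 CPM, 2.41 and 3.32 times). Wnt5a was at 60.7 and 47.7 CPM in this class, 2.29 and 1.80 times the other nuclei. Of the members, 0 of 6 at E18.5 and 2 of 6 at P3 were at least 2-fold above the other nuclei in this class. The latter were Wnt11 and Wnt6, which had 33 UMIs there.

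**Figure D4:**
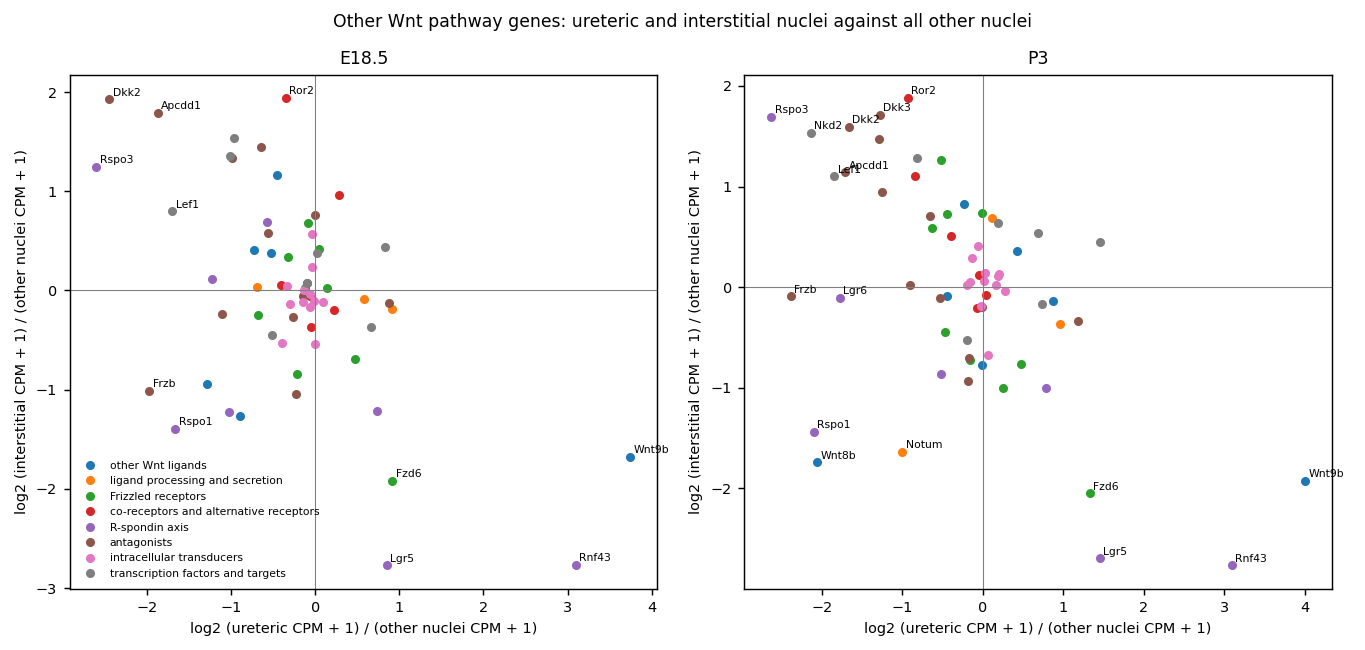
Pathway genes outside the 6 members at E18.5 (left) and P3 (right), each point a gene coloured by list. The horizontal axis gives log2 of the level in ureteric tip-like and principal cell-like nuclei over all other nuclei, the vertical axis the same for interstitium-like nuclei, with 1 CPM added; Wnt9b and Rnf43 lay at the right of both panels, at 15.6 and 8.88 times the other nuclei at E18.5 before this addition, and Ror2 and Dkk2 among the highest on the vertical axis.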

How the data were processed

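The authors deposited counts, whole numbers of UMIs per gene and nucleus without normalization, as 1 matrix per library. The submitters' processing notes name Cell Ranger 5.0.1 and mm10 for both libraries, whereas the file headers of the E18.5 matrix name release 7.0.0 and those of the P3 matrix release 5.0.1. Whether intronic reads were counted is not given in the sources used here. Of 21600 and 12216 deposited barcodes, barcodes were removed where log UMIs or log genes lay below the median by over 3 median absolute deviations, as were those whose mitochondrial share exceeded the median by 3 such deviations and by 0.5 percentage points. The study kept fewer nuclei after its own filters. Doublet calls came from scrublet (scanpy 1.11.5, expected rate 0.1). Called nuclei were kept, and clusters in which they exceeded 50% stayed unnamed. For clustering, size factors of scran 1.30.0 (R 4.3.3) were applied, and 2000 variable genes, 50 principal components, 10 neighbours and igraph 2.1.4 gave the clusters, without 83 genes (the members and pathway lists).

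A cluster was named from at least 3 raised markers (at least 10 UMIs, and 2-fold above all nuclei outside the cluster after 10 CPM was added to each level). A raised marker also had to be among its leading genes, the first 50 in a whole library and the first 10 for a sub-cluster. Names were dropped where another class had more markers among the first 10 leading genes, or where UMIs were low and no marker was among them. Ureteric, stromal and nephrogenic nuclei were clustered again, and sub-clusters were paired between libraries by at least 3 shared leading genes among the first 10, or by name. UMIs were summed per class. Intervals are exact at 95% (Poisson for a level, Clopper-Pearson for a share, conditional binomial for a ratio) and cover counting error only. Nuclei are not replicates. Scripts used scipy 1.17.1 in Python 3.11.15 and were tested on simulated data.

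The members, marker lists and pathway lists were chosen with earlier results of these data known, and the rules for scoring markers and pairing sub-clusters were set after clusters had been seen. The genes named are the members in every class, Wnt5a and Wnt9b, the class markers, at most 2 genes per pathway list in each direction between the ages and 2 per list in ureteric and in interstitial nuclei, and the 3 genes most like a member with at least 200 UMIs. Leading genes of clusters are named as such. Alternatives were other clusterings, doublets left out, quality limits on the linear scale, mean CPM per nucleus, other UMI minimums and thinning depths. Sequences and start sites came from RefSeq (GRCm38.p6) and gene positions from GENCODE M21 (GRCm38).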

Additional observations from a re-analysis of the deposited data

Results flagged for a closer look

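Opposite differences between the ages were measured for 2 members. The P3 to E18.5 ratio of Wnt4 was 4.19 in nephron progenitor-like nuclei and 0.362 in distal precursor-like nuclei. The latter had 53.3 and 19.3 CPM, against 42.3 and 19.1 CPM in endothelium-like nuclei, which should lack Wnt4. The P3 to E18.5 ratio of Wnt11 was 2.63 in distal precursor-like nuclei and 0.462 in ureteric tip-like nuclei. The share of tip-like nuclei with a Wnt11 UMI after thinning did not show the lower Wnt11 level in the tip, but its intervals were too wide to decide on it. With 1 library per age, the difference between classes was not tested in either case.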

How the results depend on the processing

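Of 203 recomputed values, 165 stayed within the limit set for them, 37 moved further and 1 reversed. The limit was the interval of the main value, or a fixed factor for counts of genes, which have no interval. Removing called doublets before clustering gave a Wnt4 ratio between the ages of 3.58 in nephron progenitor-like and 1.25 in early nephron-like nuclei, so that the latter was no longer called. It also gave a Wnt4 level of 89.8 CPM in early nephron-like nuclei at E18.5 (1.26 times the other nuclei), 8.18 times the other nuclei in nephron progenitor-like nuclei at P3, and 4.52 times for Wnt11 in P3 interstitium-like nuclei. Leaving doublets out of the named clusters, an alternative chosen after seeing the data except for the ratios in whole libraries, gave 6.26 times for Wnt4 in nephron progenitor-like nuclei, 4.25 for Wnt11 in interstitium-like nuclei and 2.72 for Wnt5b in podocyte-like nuclei at P3, and a Wnt4 ratio of 1.09 in whole libraries. For ratios between the ages within classes, Leiden clustering and the graph of 20 neighbours were likewise chosen after seeing the data. Quality limits on the linear scale gave Wnt4 ratios of 7.40 in nephron progenitor-like and 2.41 in early nephron-like nuclei, and 97.7 CPM (1.39 times) in early nephron-like nuclei at E18.5. A graph of 20 neighbours gave 127 CPM (1.92 times) for Wnt4 in early nephron-like nuclei at E18.5 and 4.84 times in nephron progenitor-like nuclei at P3. For Wnt5b in podocyte-like nuclei it gave 84.6 CPM (1.13 times) at E18.5 and 65.1 CPM (0.843 times, reversed) at P3. Leiden clustering gave 5.80 times for Wnt4 in nephron progenitor-like nuclei and 123 CPM (1.62 times) for Wnt5b in podocyte-like nuclei at P3. It gave 42.8 CPM (6.27 times) at E18.5 and 58.2 CPM (8.26 times) at P3 for Wnt7b in principal cell-like nuclei. Mean CPM per nucleus gave ratios between the ages of 1.04 for Wnt4, 1.09 for Wnt5b and 1.48 for Wnt11 in whole libraries, 2.87 times for Wnt5b in podocyte-like nuclei at E18.5, and 37.1 CPM (2.48 times) for Wnt11 in interstitium-like nuclei at P3. Thinning to 2000 UMIs gave 1.72 for Wnt4 with Wnt11. Without a minimum of UMIs, 7 of 77 pathway genes were higher and 11 lower, where 11.1% and 16.5% of all genes were. With 50 CPM added, 9 of the 15 genes most like a member were the same. Leiden clustering gave no loop of Henle-like, early nephron-like or ureteric tip-like class at E18.5, so that 5 values could not be computed. The cause of these moves was not tested.

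No paired analysis was possible because each age had 1 library, and leaving out a library was not possible for the same reason. Counting error limits what is said of Wnt2b and Wnt6, whose class levels rest on few UMIs, and of sub-clusters of under 60 nuclei. Every class and sub-cluster rests on 1 pool of kidneys per age.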
